A study of Danio rerio with 6 samples.

Results

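The interferon response genes described here are 7 zebrafish genes: isg15, rsad2 and mxa, whose products act against viruses, stat2, which carries the interferon signal, and irf1b, irf7 and irf9, transcription factors of the interferon regulatory family. They were taken by name from the 34289 genes in the count tables. The set was selected on the lower isg15 level of Geminin-positive osteoblasts, seen in an earlier analysis of these same libraries, and the question was whether the other genes shared that difference. All 7 were found in the tables. A gene had to pass a filter on low counts to be tested, which 12855 genes did, and 6 of the 7 did. The gene that did not was rsad2. Since the choice rested on the same comparison, the values and calls of the 7 genes are a description, and no p-value is given for them.

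RNA was sequenced from osteoblasts, which build the bone of regrowing fish scales, in zebrafish with the transgenes osx:H2A-mCherry and osx:Venus-hGeminin. Both groups were positive for H2A-mCherry, which marks osteoblast nuclei, and were sorted on day 4 after plucking from scales digested with Liberase. The Geminin-positive group (osx:H2A-mCherry+ osx:Venus-hGeminin+) and the Geminin-negative group (osx:H2A-mCherry+ osx:Venus-hGeminin-) had 3 libraries each. Venus-hGeminin is degraded in G1 and so marks cells that have entered S phase and not yet completed mitosis. Both transgenes use osterix (sp7) regulatory sequence, so the gate depends on where that sequence is active, and each sample pooled several fish. The labels equate a positive reporter with high Erk activity, and the design text says the inverse, so no direction is taken here for Erk, the terminal kinase of a MAP kinase cascade. No strain, age or sex was used.

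Interferons are secreted proteins that warn cells of infection. They bind receptors at the cell surface, the attached Janus kinases phosphorylate STAT proteins, and these join IRF9 in a complex that binds promoters of interferon-stimulated genes. Many genes of the pathway, STAT2, IRF7 and IRF9 among them, are themselves interferon-stimulated in mammals. In bone, interferons are best known for restraining the formation of osteoclasts, the bone-resorbing cells.

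Total counts per library ranged from 16482720 to 19087246 in Geminin-positive libraries and from 15854710 to 34472612 in Geminin-negative libraries, and between 11977 and 17875 genes had a count. Levels are given as CPM, counts scaled to library size with TMM normalisation. At the edgeR quasi-likelihood threshold of an adjusted p of 0.05, 78 of 12855 genes were called, 16 higher and 62 lower in Geminin-positive libraries. With library size scaling alone, the split was 12 higher and 173 lower and moved the median log2 fold change of all genes to -0.47, against -0.01 with TMM. Of 13 osteoblast markers, 12 were tested and 2 were called higher in Geminin-positive libraries, the collagen genes col1a1a and col1a1b. The gene bglap was close to 0 in both groups. Of the 12, 6 lay below 0 on the log2 fold change scale, where the median was -0.10. The markers summed to 264815 to 515830 CPM in Geminin-positive libraries and 100953 to 197528 CPM in Geminin-negative libraries. Without col1a1a, col1a1b and col1a2, left out after their values were seen, the sums overlapped, at 34437 to 50004 CPM in Geminin-positive libraries and 36325 to 100002 CPM in Geminin-negative libraries. Markers of leukocytes were matched for 22 of 25 names and summed to 102, 276 and 212 CPM in Geminin-positive libraries, against 2746, 2669 and 3922 CPM in Geminin-negative libraries. Of the 19 tested, 6 were called lower in Geminin-positive libraries and 18 lay below 0 on the log2 fold change scale (94.7%), where the median was -4.19. Over all genes tested, 0.482% were called lower and 50.4% lay below 0. The pan-leukocyte gene coro1a had 0 counts in all 3 Geminin-positive libraries and 23.1, 17.0 and 46.7 CPM in Geminin-negative libraries. Such a gene passed the low-count filter through the Geminin-negative group alone and had little room to count as higher. The marker counts are therefore a description. Osteoclast markers summed to 301 to 449.7 CPM in Geminin-positive libraries and 818 to 1053 CPM in Geminin-negative libraries. The gene tnfrsf11a made up most of the Geminin-positive sum and had the smallest difference of those tested, a log2 fold change of -0.22. The sums therefore understate the difference of the other osteoclast markers. All 6 osteoclast markers tested lay below 0 on the log2 fold change scale, with a median of -3.86, and ctsk and itgb3b among them were called lower. Of these markers, ocstamp also had 0 counts in all 3 Geminin-positive libraries. Keratinocyte markers summed to 811 to 1069 CPM in Geminin-positive and 880 to 3976 CPM in Geminin-negative libraries. Markers of pigment cells, endothelium and erythrocytes stayed at or under 84.7 CPM in every library. In bulk samples, fewer cells of a type and less RNA per cell cannot be told apart, and the part of these other cell types in the values below was not tested.

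Among the effectors, isg15 was counted in every library. ISG15 is a small ubiquitin-like protein that is attached to other proteins after interferon signalling, and is also secreted. The gene isg15 (ENSDARG00000086374) lies on chromosome 5 from 19608232 to 19609484, on the plus strand of danRer10. It had 10.6, 7.14 and 6.21 CPM in Geminin-positive replicates 1, 2 and 3, against 63.9, 62.7 and 34.4 CPM in Geminin-negative replicates 1, 2 and 3. These rest on 167, 99 and 99 counts in Geminin-positive libraries and on 1250, 2284 and 764 counts in Geminin-negative libraries. The groups did not overlap, and the lowest Geminin-negative library was 3.24 times the highest Geminin-positive library. The means were 7.98 ± 2.32 CPM in Geminin-positive and 53.7 ± 16.7 CPM in Geminin-negative libraries (SD, n = 3 each), and the log2 fold change was -2.75 (SE 0.45).

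Of the antiviral genes, rsad2 was counted in 1 library of each group, and mxa in every Geminin-negative library but only in Geminin-positive replicate 3. Viperin, the product of rsad2, is a radical SAM enzyme that blocks the replication of many viruses. The gene rsad2 (ENSDARG00000004952, chromosome 17, 35409505 to 35413376) had 0, 0 and 0.940 CPM in Geminin-positive libraries, against 9.77, 0 and 0 CPM in Geminin-negative libraries. Its counts came from 1 library of each group, 15 counts in Geminin-positive replicate 3 and 191 counts in Geminin-negative replicate 1, so no fold is given. A count of 0 allows up to 3 counts, which is 0.188 to 0.216 CPM in a Geminin-positive library and 0.0824 to 0.153 CPM in a Geminin-negative library, as far as counting error goes. Mx proteins are dynamin-like GTPases that trap viral components. The gene mxa (ENSDARG00000021688, chromosome 1, 6878883 to 6898529) had 0, 0 and 3.76 CPM in Geminin-positive libraries, against 22.1, 1.68 and 13.0 CPM in Geminin-negative libraries. The ranges overlapped, because the highest Geminin-positive library was above Geminin-negative replicate 2. Its log2 fold change was -3.28 with an SE of 2.16. The annotated exons of mxa share 629 bases with those of the neighbouring mxb on the same strand, so the split of reads between them is uncertain.

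**Figure D1:**
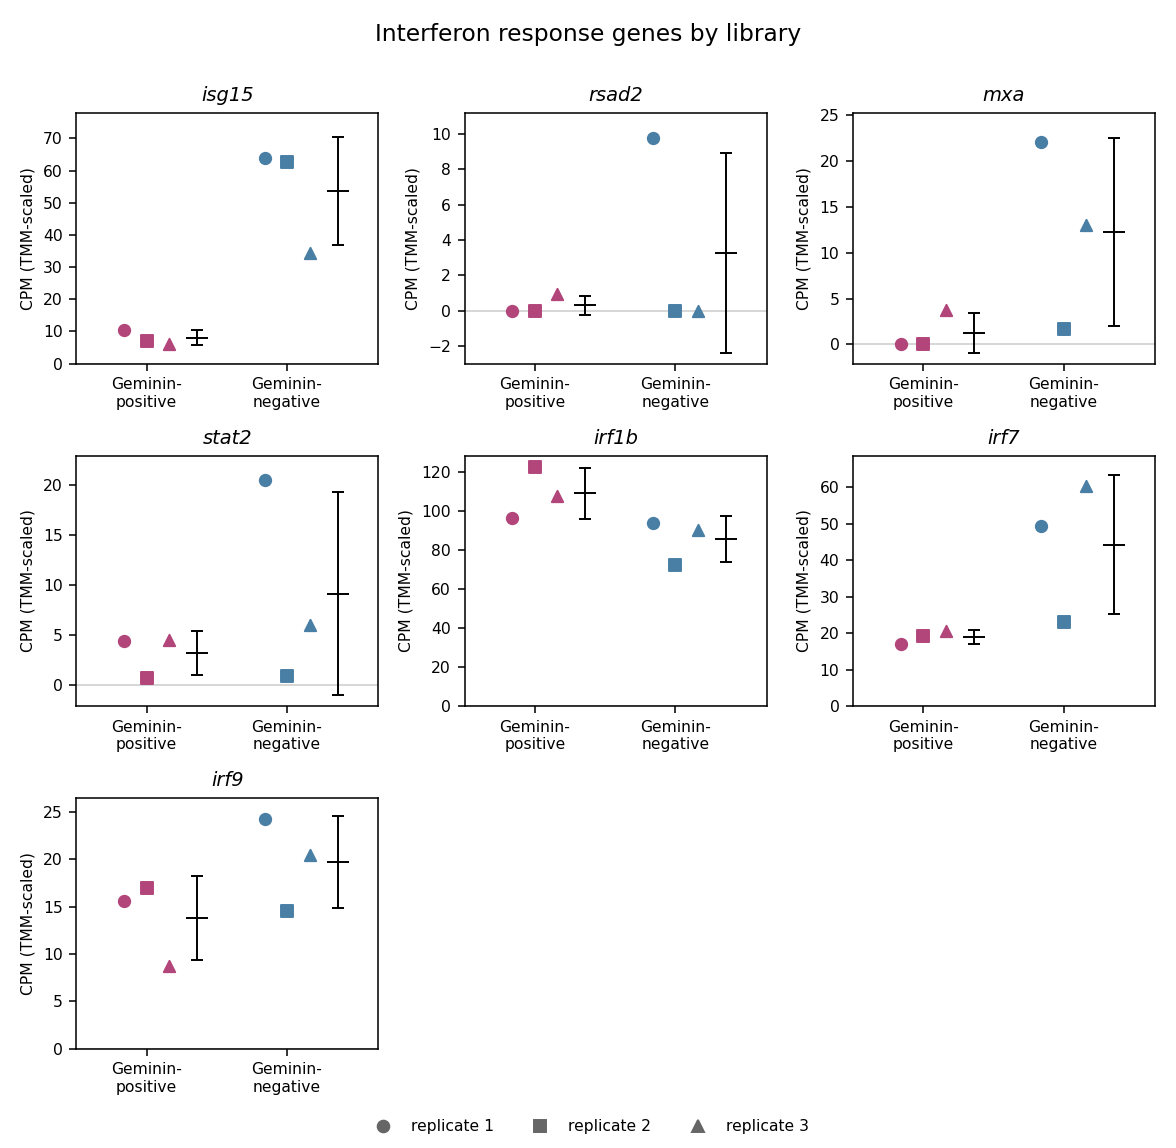
Level of each of the 7 interferon response genes in CPM after TMM scaling (y axis, its own scale in each panel), with Geminin-positive libraries on the left and Geminin-negative libraries on the right. Points are libraries, their shape gives the replicate number, and bars show the mean ± SD of 3 libraries, whose lower end can pass below 0. The isg15 groups stand apart by a factor of 3.24, whereas stat2, irf9, mxa and rsad2 overlap.

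STAT2 carries the signal of type I interferon receptors to the nucleus and is part of the complex with IRF9. The gene stat2 (ENSDARG00000031647, chromosome 6, 39126008 to 39162886) had 4.45, 0.721 and 4.51 CPM in Geminin-positive libraries, against 20.5, 0.906 and 5.98 CPM in Geminin-negative libraries. Replicate 2 was the lowest in both groups, the ranges overlapped, and the log2 fold change was -1.50 (SE 1.44). Among Geminin-negative libraries the highest value was 22.6 times the lowest.

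Among the interferon regulatory factors, irf7 was the other gene that was lower in Geminin-positive libraries without overlap. IRF7 switches on interferon genes after a virus is sensed and is the main amplifier of type I interferon production in mammals. The gene irf7 (ENSDARG00000045661, chromosome 25, 25451711 to 25455877) had 17.0, 19.3 and 20.6 CPM in Geminin-positive libraries, against 49.3, 23.2 and 60.2 CPM in Geminin-negative libraries. The gap between the groups was small, the lowest Geminin-negative library being 1.12 times the highest Geminin-positive library. The means were 18.9 ± 1.85 CPM in Geminin-positive and 44.2 ± 19.1 CPM in Geminin-negative libraries (SD, n = 3 each), with a log2 fold change of -1.22 (SE 0.44).

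The gene irf9 (ENSDARG00000016457, chromosome 12, 13244494 to 13268580), whose product supplies the DNA-binding part of the STAT complex, had 15.6, 17.0 and 8.71 CPM in Geminin-positive libraries, against 24.2, 14.6 and 20.5 CPM in Geminin-negative libraries. The ranges overlapped, and the log2 fold change was -0.52 (SE 0.54). The gene irf1b (ENSDARG00000043249, chromosome 21, 45674662 to 45800677) belongs to the family of IRF1, an early activator of interferon-stimulated genes and of antigen presentation in mammals. It had 96.6, 123 and 108 CPM in Geminin-positive libraries, against 93.9, 72.1 and 90.4 CPM in Geminin-negative libraries. Every Geminin-positive library was above every Geminin-negative library, the lowest Geminin-positive library being 1.03 times the highest Geminin-negative library. The log2 fold change was 0.35 (SE 0.26), and its sign turned to -0.15 when libraries were scaled by total counts alone. The annotated span of irf1b overlaps 2 other genes, with which it shares no exon bases.

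Of the 7 genes, 1 was called lower, isg15, and 0 were called higher, where 0.482% of all genes tested were called lower and 0.124% higher. Since isg15 was the gene that led to the set, its call says nothing further about the set. Of the other 5 tested genes 0 were called by edgeR, DESeq2 or limma-voom, which is given as a description. The call of isg15 was lost in each of the 6 fits that left out 1 library and with limma-voom, while its log2 fold change stayed between -3.18 and -2.59 over 13 alternatives. The groups did not overlap for 2 genes that were lower in Geminin-positive libraries, isg15 and irf7, and for 1 that was higher, irf1b. Over all genes tested, 10.3% were lower without overlap and 8.09% were higher without overlap, and beside isg15 the 7 genes had 1 in each direction. Without isg15, the summed level of the other 6 genes was 134, 159 and 146 CPM in Geminin-positive libraries, against 219.7, 112 and 190.2 CPM in Geminin-negative libraries, and these ranges overlapped. The overlap rested on irf1b, which made up 72.3% to 76.8% of this sum in Geminin-positive libraries and 42.7% to 64.1% in Geminin-negative libraries. Without irf1b, a choice made after seeing the data, the other 5 genes summed to 37.0, 37.0 and 38.5 CPM in Geminin-positive libraries, against 125.8, 40.3 and 99.8 CPM in Geminin-negative libraries. These ranges did not overlap, with Geminin-negative replicate 2 just above the Geminin-positive libraries.

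The genes also differed in how they varied within a group. Geminin-negative replicate 2 was the lowest library of its group for 5 of the 7 genes, all except isg15, where it was close to the highest, and rsad2, which had 0 counts in replicates 2 and 3. It was also the lowest for 35 of 73 tested pathway genes described below (47.9%) and for 12 of 19 tested leukocyte markers (63.2%), against 27.6% of all genes tested. In Geminin-negative libraries the highest isg15 value was 1.86 times the lowest. The same ratio was 2.60 for irf7, 1.67 for irf9, 1.30 for irf1b and 13.2 for mxa.

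Levels can be compared between genes only per length, in RPKM. In Geminin-positive libraries irf1b was the most abundant, at 39.2 ± 4.68 RPKM, followed by irf7 at 10.3 ± 1.00, irf9 at 7.52 ± 2.43 and isg15 at 7.0 ± 2.03 RPKM (SD, n = 3). The remaining 3 genes, stat2, mxa and rsad2, averaged 0.193 to 0.487 RPKM. In that order irf7 and irf9, irf9 and isg15, and the 3 least abundant genes among themselves did not differ beyond their SDs. In Geminin-negative libraries isg15 had the highest mean, at 47.0 ± 14.7 RPKM, followed by irf1b at 30.8 ± 4.23, irf7 at 24.0 ± 10.3 and irf9 at 10.8 ± 2.66 RPKM. There, mxa averaged 3.22 ± 2.68, rsad2 2.01 ± 3.47 and stat2 1.38 ± 1.53 RPKM. In that order isg15 and irf1b, irf1b and irf7, and the 3 least abundant genes among themselves did not differ beyond their SDs, while irf9 stood apart from irf7 above it and mxa below it. By mean RPKM, isg15 thus stood below irf1b, irf7 and irf9 in the Geminin-positive group and above all of them in the Geminin-negative group.

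**Figure D2:**
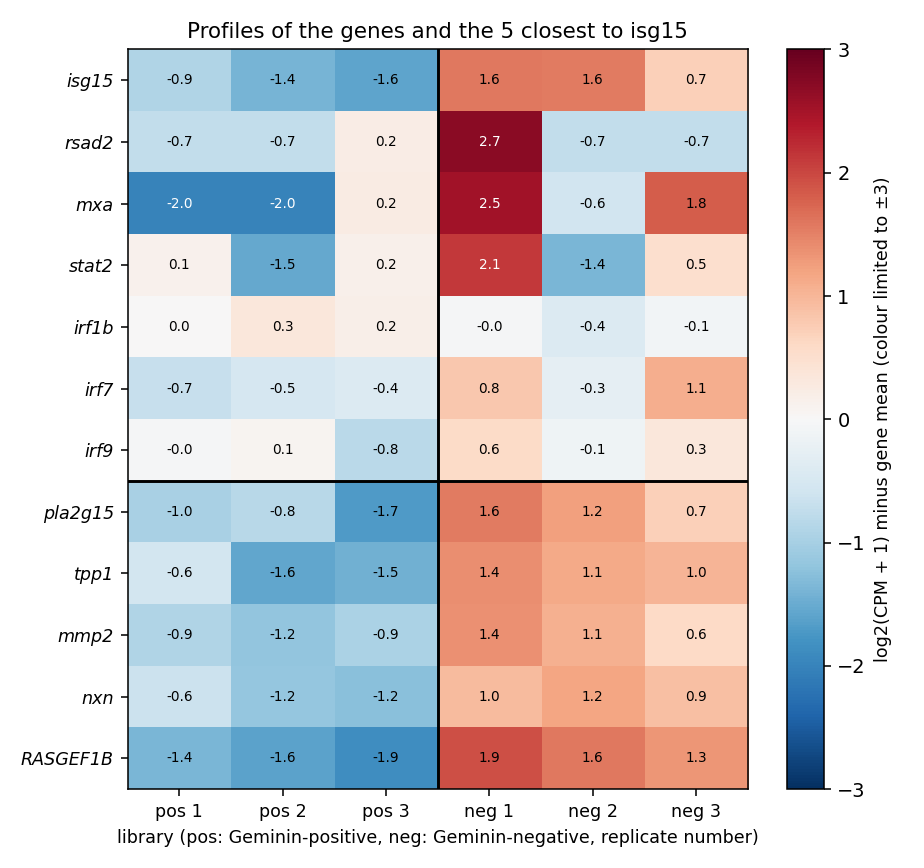
Level of each gene in each library as log2(CPM + 1) minus the gene's own mean over the 6 libraries, for the 7 interferon response genes (upper block) and the 5 genes with the closest profile to isg15 (lower block), with Geminin-positive libraries left of Geminin-negative libraries. Blue is below and red above the gene's mean. The 5 genes below the line split by gate as isg15 does, while stat2 is low in Geminin-negative replicate 2.

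The profile of isg15 was set against the profiles of the 6153 genes that averaged 10 CPM or more, using the root mean square difference between log2(CPM + 1) values over 6 libraries, each gene centred on its own mean. The 5 closest genes were pla2g15 (difference 0.278), tpp1 (0.282), mmp2 (0.359), nxn (0.366) and RASGEF1B (0.374). The genes pla2g15 and tpp1 encode a phospholipase and a peptidase of the lysosome, mmp2 a matrix metalloproteinase, nxn a thioredoxin-like protein and RASGEF1B a guanine nucleotide exchange factor. For mmp2 the levels were 228, 187 and 222 CPM in Geminin-positive libraries, against 1105, 892 and 652 CPM in Geminin-negative libraries. For tpp1 they were 18.6, 8.72 and 9.53 CPM in Geminin-positive libraries, against 75.2, 62.0 and 57.7 CPM in Geminin-negative libraries. As these genes were chosen for their likeness, their difference is not tested here. Of the other interferon response genes, irf7 was at rank 590 (9.59% of the way down the order), irf9 at rank 923 (15.0%) and irf1b at rank 3649 (59.3%). Such ranks do not by themselves mean likeness to isg15, since a gene with little difference between the gates ranked close to irf9. This was psme1 of the MHC class I list, named after its values were seen, at rank 984. Its log2 fold change was -0.27 (SE 0.65). The genes stat2, mxa and rsad2 averaged under 10 CPM and were not ranked. The closest gene of the pathway lists was ifi27.7, at rank 86.

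The rest of the pathway was covered by 7 lists with 130 names, of which 113 matched a gene and 73 passed the filter on low counts. By edgeR's quasi-likelihood test with adjustment over all genes, 0 of the 73 were called, where 0.607% of all genes tested were. At an unadjusted p of 0.05 in edgeR, 17 of the 73 were lower in Geminin-positive libraries and 0 were higher. Of all 12855 genes tested, 741 were lower (5.76%) and 468 were higher at that level. The log2 fold change was negative for 53 and positive for 20, so for 72.6%, against 50.4% of all genes tested, and its median was -0.99, against -0.01. The groups did not overlap for 23 genes that were lower (31.5%, against 10.3% of all genes tested) and 2 that were higher in Geminin-positive libraries (2.74%, against 8.09%). A gene could pass the low-count filter through the Geminin-negative group alone, as irf10 below did, and then had little room to count as higher. The reverse holds for the Geminin-positive group. How many genes passed in either way was not counted, so these shares and those of each list below are a description. DESeq2 called 9 of the 78 pathway genes to which it gave an adjusted p (11.5%), where it called 6.01% of all genes. With no low-count filter, edgeR called 8 of 104 pathway genes (7.69%), where it called 2.57% of all genes. Every gene named below without a further remark missed the threshold.

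The interferon ligands were close to the limit of detection. Of 6 matched ligand genes, 3 had no counts in any library, and together the list summed to 3.75, 0 and 1.44 CPM in Geminin-positive libraries, against 1.53, 0.357 and 2.25 CPM in Geminin-negative libraries. Only ifnphi1, which encodes a type I interferon of fish, was tested. It had 3.75, 0 and 1.44 CPM in Geminin-positive libraries, against 0.767, 0.357 and 0 CPM in Geminin-negative libraries, and the ranges overlapped.

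Receptors and Janus kinases summed to 160.1, 135 and 165 CPM in Geminin-positive libraries, against 184, 216 and 305 CPM in Geminin-negative libraries. Of 8 tested genes, 6 were below 0 on the log2 scale, with a median of -0.42. The kinase gene jak1, the most abundant of them by CPM, had 76.7, 72.8 and 110.0 CPM in Geminin-positive libraries, against 95.2, 139 and 150.1 CPM in Geminin-negative libraries (log2 fold change -0.56, SE 0.30). The gene ifngr2, a chain of the interferon gamma receptor, had 25.6, 19.8 and 14.5 CPM in Geminin-positive libraries, against 29.3, 28.6 and 74.7 CPM in Geminin-negative libraries, without overlap. The kinase gene tyk2 had 1.27, 0 and 3.07 CPM in Geminin-positive libraries, against 11.9, 3.93 and 26.0 CPM in Geminin-negative libraries, also without overlap. For crfb1, a chain of the receptor for fish type I interferons, the means were 18.4 ± 6.55 CPM in Geminin-positive and 18.3 ± 7.53 CPM in Geminin-negative libraries (SD, n = 3 each), and 259 bases of its exons are shared with POU1F1.

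The other interferon regulatory factors were split, with 4 of 8 tested genes on each side of 0. The gene irf10, a family member kept in fish and birds but not in mice or humans, had 0 counts in all 3 Geminin-positive libraries, against 7.47, 13.4 and 6.12 CPM in Geminin-negative libraries. Against a floor of 3 counts pooled over the Geminin-positive group, it was at least 137-fold lower there, as far as counting error goes. Libraries of a group varied by more than counting error, as for rsad2 with 191, 0 and 0 counts in Geminin-negative libraries, so the fold can be smaller. The adjusted p of irf10 in edgeR was 0.150, and it passed the filter on low counts only through the Geminin-negative group. The gene irf5, which acts downstream of Toll-like receptors, had 0.318, 4.04 and 4.01 CPM in Geminin-positive libraries, against 15.8, 25.8 and 16.6 CPM in Geminin-negative libraries (log2 fold change -2.80, SE 1.01), with 248 exon bases shared with TNPO3. The genes irf2a and irf2b encode relatives of IRF2, known in mammals as an opponent of IRF1, and irf2bp2b a binding protein of IRF2. Their log2 fold changes were 0.63 (SE 0.90), 0.18 (SE 0.67) and 0.43 (SE 0.40), and their groups overlapped.

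Of the negative regulators, 6 of 8 tested genes were below 0 on the log2 scale, with a median of -1.04. The feedback inhibitor gene socs1a had 5.21, 7.35 and 7.46 CPM in Geminin-positive libraries, against 42.5, 6.18 and 25.6 CPM in Geminin-negative libraries, and again Geminin-negative replicate 2 was the low library. The phosphatase gene ptpn6, known mainly from blood cells, had 0, 6.71 and 2.01 CPM in Geminin-positive libraries, against 41.5, 21.7 and 52.1 CPM in Geminin-negative libraries (log2 fold change -3.73, SE 1.32). For socs3b and ptpn2b, another feedback inhibitor and a phosphatase of Janus kinases, the log2 fold changes were -0.68 (SE 0.64) and 0.19 (SE 0.54). The enzymes that attach and remove ISG15 were named after their values were seen. The gene uba7, for the activating enzyme, had 0, 0 and 0 CPM in Geminin-positive libraries, against 2.97, 0.879 and 0 CPM in Geminin-negative libraries, and did not pass the filter. The gene usp18, for the enzyme that removes ISG15, had 1.14, 4.47 and 0 CPM in Geminin-positive libraries, against 6.44, 0.0824 and 4.90 CPM in Geminin-negative libraries.

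Genes that sense viral nucleic acids, with their adaptors, summed to 70.8, 51.0 and 35.7 CPM in Geminin-positive libraries, against 145, 94.4 and 90.6 CPM in Geminin-negative libraries. Of 11 tested genes, 9 were below 0 on the log2 scale, with a median of -0.99. The ubiquitin ligase gene trim25, whose product activates the RNA sensor RIG-I in mammals, had 13.3, 12.8 and 7.52 CPM in Geminin-positive libraries, against 28.6, 29.3 and 22.9 CPM in Geminin-negative libraries (log2 fold change -1.27, SE 0.49). The gene myd88, for the common adaptor of Toll-like receptors, had 7.88, 5.62 and 2.57 CPM in Geminin-positive libraries, against 15.7, 14.6 and 20.6 CPM in Geminin-negative libraries. Neither of these overlapped between the groups. The gene mavs, for the mitochondrial adaptor of RIG-I-like sensors, overlapped, with means of 5.62 ± 5.64 CPM in Geminin-positive and 10.5 ± 4.17 CPM in Geminin-negative libraries (SD, n = 3 each).

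**Figure D3:**
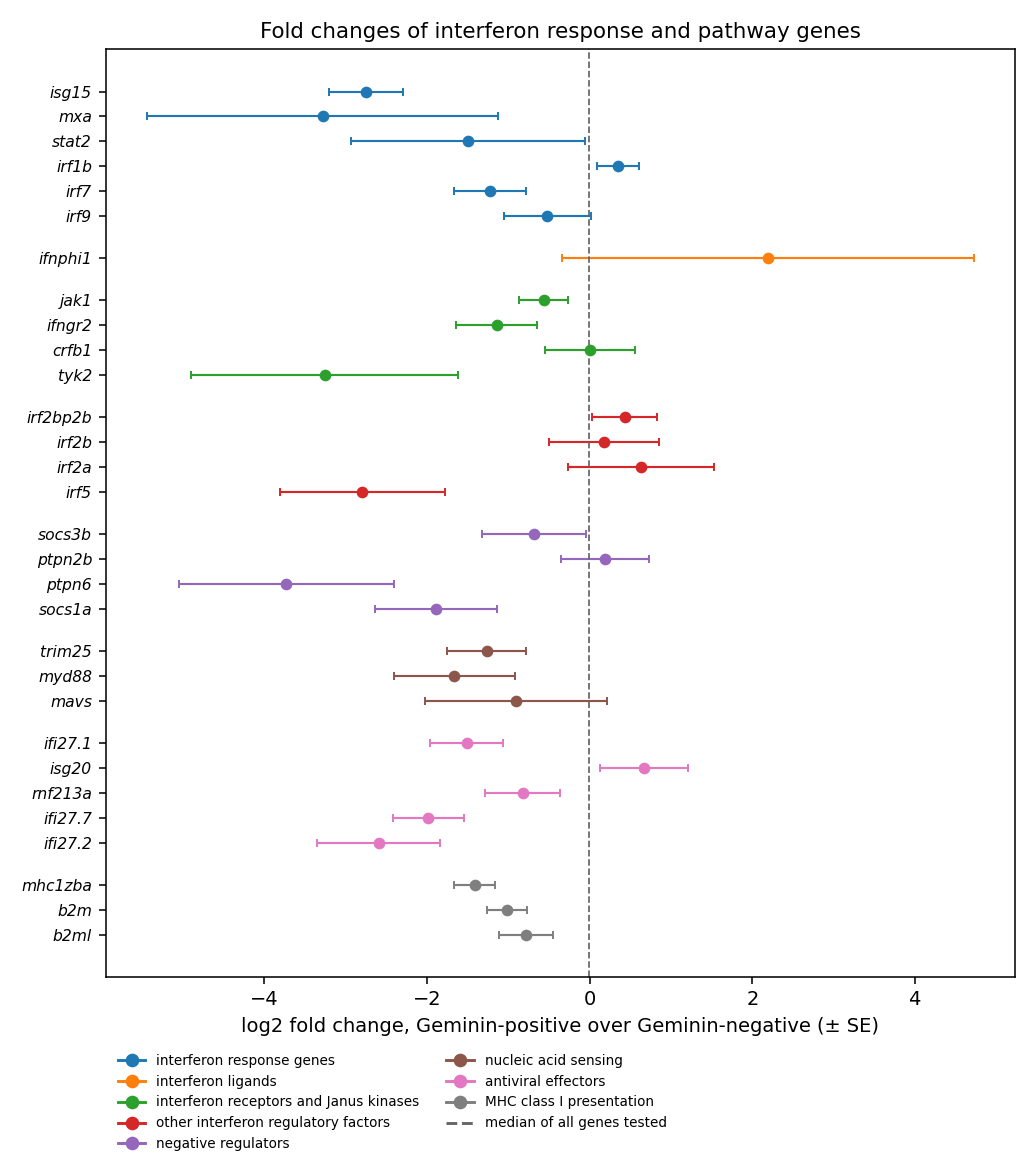
log2 fold change, Geminin-positive over Geminin-negative, with bars of ± 1 SE (x axis), for the 6 tested interferon response genes and the named genes of 7 pathway lists in colour, n = 3 libraries a group; the dashed line is the median of all genes tested, -0.01. The gene irf10, with 0 counts in the Geminin-positive group, and rsad2, which was not tested, are not drawn; isg15 lies at -2.75, mhc1zba at -1.41 and irf1b at 0.35.

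Antiviral effectors other than the genes above had a median log2 fold change of -1.51, with 16 of 21 tested genes below 0 (76.2%, against 50.4% of all genes tested). The groups did not overlap for 7 that were lower (33.3%, against 10.3% of all genes tested) and 1 that was higher in Geminin-positive libraries (4.76%, against 8.09%). The ifi27 genes, which encode small hydrophobic interferon-induced proteins, lie in a cluster on chromosome 13 from 37480006 to 37530800. The gene ifi27.7 had 14.9, 8.22 and 14.7 CPM in Geminin-positive libraries, against 50.2, 35.6 and 63.7 CPM in Geminin-negative libraries (log2 fold change -1.98, SE 0.44), with an adjusted p of 0.106 in edgeR. The gene ifi27.1 had 52.3, 36.3 and 53.3 CPM in Geminin-positive libraries, against 160.3, 56.2 and 189 CPM in Geminin-negative libraries. The gene ifi27.2 had 2.60, 5.91 and 9.21 CPM in Geminin-positive libraries, against 16.2, 20.4 and 70.8 CPM in Geminin-negative libraries. The neighbour ifi27.8, named after its values were seen, overlapped, with 54.7, 74.6 and 57.2 CPM in Geminin-positive libraries, against 53.1, 69.7 and 73.5 CPM in Geminin-negative libraries. Reads may be split between such similar neighbours.

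The remaining named effectors overlapped. The gene rnf213a, for a large ubiquitin ligase, had a log2 fold change of -0.82 (SE 0.46), and isg20, for an exonuclease that degrades viral RNA, of 0.67 (SE 0.54). The higher effector without overlap, named after its values were seen, was adar, which encodes an RNA-editing enzyme, with 14.1, 7.79 and 13.2 CPM in Geminin-positive libraries, against 3.22, 6.01 and 0.0450 CPM in Geminin-negative libraries.

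Genes of MHC class I presentation, which display peptides to T cells and are classical interferon targets, were the most abundant pathway list by summed CPM. They summed to 706, 619 and 574 CPM in Geminin-positive libraries, against 1521, 1057 and 1354 CPM in Geminin-negative libraries. Of 16 tested genes, 12 were below 0 on the log2 scale (75.0%, against 50.4% of all genes tested), with a median of -0.86. The groups did not overlap for 7 that were lower (43.8%, against 10.3% of all genes tested) and 1 that was higher in Geminin-positive libraries (6.25%, against 8.09%). The gene mhc1zba, for a class I heavy chain, had 220.2, 203 and 221 CPM in Geminin-positive libraries, against 690.4, 425 and 599.6 CPM in Geminin-negative libraries. Its log2 fold change was -1.41 (SE 0.25) with an adjusted p of 0.0572 in edgeR, and it shares 413 exon bases with mhc1zda. The gene b2m, for the class I light chain beta-2-microglobulin, had 196, 186 and 128 CPM in Geminin-positive libraries, against 349, 345 and 338 CPM in Geminin-negative libraries (log2 fold change -1.02, SE 0.25), with an adjusted p of 0.147 in edgeR. Its relative b2ml had 114, 104 and 89.6 CPM in Geminin-positive libraries, against 259, 118 and 155 CPM in Geminin-negative libraries.

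The gene psmb12, for a proteasome subunit, and tap2t, for a relative of a peptide transporter, were named after their values were seen. For psmb12 the levels were 2.29, 1.80 and 1.76 CPM in Geminin-positive libraries, against 12, 16.1 and 23.5 CPM in Geminin-negative libraries. For tap2t they were 10, 15.4 and 12 CPM in Geminin-positive libraries, against 2.40, 0 and 0 CPM in Geminin-negative libraries, and 767 of its exon bases are shared with faap100.

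**Figure D4:**
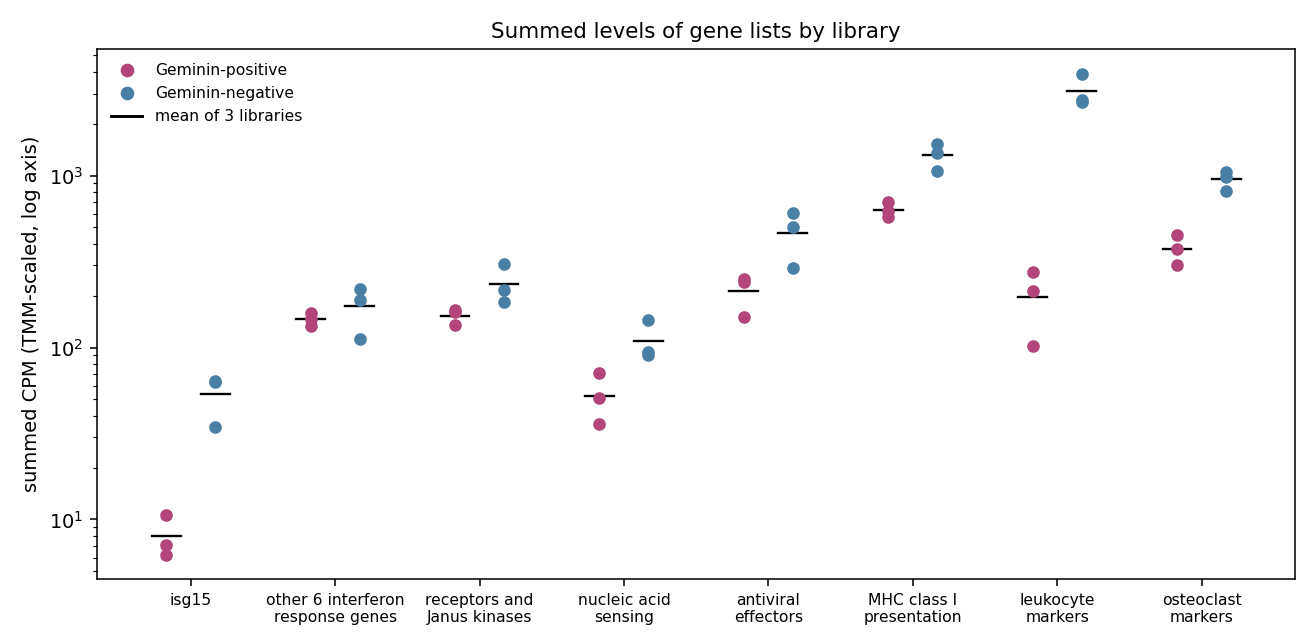
Summed CPM after TMM scaling (y axis, log scale) of isg15, of the other 6 interferon response genes, of 4 pathway lists and of 2 marker lists, with Geminin-positive libraries left of Geminin-negative libraries; points are libraries and lines the mean of 3. Among the sets drawn the other 6 interferon response genes overlap, a sum of which irf1b makes up 72.3% to 76.8% in Geminin-positive libraries, and leukocyte markers stand furthest apart, at 102 to 276 CPM in Geminin-positive and 2669 to 3922 CPM in Geminin-negative libraries.

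The sums of receptors and Janus kinases, of sensing genes, of effectors and of MHC class I genes thus did not overlap between the groups. The gaps were narrower than for isg15, whose lowest Geminin-negative library was 3.24 times its highest Geminin-positive library. For receptors and Janus kinases the highest Geminin-positive and lowest Geminin-negative sums were 165 and 184 CPM. They were 70.8 and 90.6 CPM for sensing genes, 251 and 289 CPM for effectors, and 706 and 1057 CPM for MHC class I genes. Each separation rested on part of its list, as seen with genes left out after their values were known. Receptor and kinase sums overlapped without jak1, and sensing sums without trim25 and myd88. Effector sums overlapped without the listed ifi27 genes, and MHC class I sums without mhc1zba, b2m and b2ml. How often sums of other genes separate was not tested. The sums of the ligands, the other interferon regulatory factors, the negative regulators and the 6 remaining interferon response genes overlapped, the last only with irf1b included. The leukocyte markers were also lower in Geminin-positive libraries. The order of libraries within a group is given as a description, and its relation to the leukocyte markers was not tested. In Geminin-positive replicate 1 the leukocyte marker sum was lowest and the sums of sensing genes, effectors and MHC class I genes were highest. Among Geminin-negative libraries, replicate 2 was lowest for leukocyte markers, effectors and MHC class I genes, and not for receptors or sensing genes. Of 22 matched leukocyte markers, 2 had 0 counts in all Geminin-positive libraries, coro1a and lck. The gene ptprc had 0.826, 0 and 0 CPM in Geminin-positive libraries, against 18.5, 7.47 and 16.8 CPM in Geminin-negative libraries. Without cd74a and cd74b, the most abundant of these markers, left out after their values were seen, the leukocyte marker sum was 42.4, 124 and 103 CPM in Geminin-positive libraries, against 1052, 759.6 and 1655 CPM in Geminin-negative libraries. Leukocytes are known to express PTPN6, IRF5 and MHC class I genes in mammals, though MHC class I genes are not particular to leukocytes. Both groups were sorted as positive for osx:H2A-mCherry, a gate meant to keep osteoblasts, and the part of leukocytes in the pathway values was not tested.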

How the data were processed

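Gene expression was measured in 6 libraries, 3 Geminin-positive and 3 Geminin-negative. The deposited unit is the raw count of reads per gene, and per the submitters' processing notes the build was danRer10 and the tools named are featureCounts 1.6.1, TopHat2 2.1.1 and Trim Galore 0.4.1. Strand handling and multiply mapped reads are not described in the sources, so overlapping genes and near-identical copies are uncertain. The deposited tables also give coordinates and a gene length, another measure by the authors, used here for RPKM. A symbol was found for 26790 of 34289 genes, through a table of Ensembl identifiers and, for zebrafish names, RefSeq annotation of GRCz12tu.

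Counts were fitted in edgeR 4.0.16 under R 4.3.3, with filterByExpr, TMM scaling, the robust quasi-likelihood test and Benjamini-Hochberg adjustment over all genes. The method was tested on simulated data. It recovered 44% of 4-fold, 58% of 8-fold, 64% of 16-fold and 80% of 32-fold changes, and 9 of 132 calls were false. The changes were placed only in genes averaging 10 CPM or more, so recovery at lower levels, as for stat2 and mxa, was not measured. A gene that was not called can therefore still differ. A log2 fold change is Geminin-positive over Geminin-negative, and SE is its size divided by the root of F. CPM and RPKM are TMM-scaled, as mean ± SD. The biological coefficient of variation was 1.12. The labels do not say that libraries of a group were separate experiments. The p-values set the difference between groups against the spread between these samples, which may not be that between separate experiments. No library was a duplicate: chi-square divided by its degrees of freedom was at least 100.6 in each pair. Floors cover counting error only, while SD and SE include the spread between libraries.

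The 7 genes and all lists were chosen with earlier results of these data known. Named genes were the 7, any called gene of a pathway list, up to 3 per list with the highest mean CPM, up to 2 with the smallest p, and the 5 genes most like isg15. Others are marked. Alternatives were RLE or library size scaling, DESeq2 1.42.0, limma-voom (limma 3.58.1), no filter, a filter of 1 CPM in 3 libraries, a replicate block and leaving out each library. Some genes that the rule for the set lists are not reported here. No sequences are shown.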

Additional observations from a re-analysis of the deposited data

How the results depend on the processing

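The 78 genes called over all genes became 185 with library size scaling, 844 with DESeq2 and 557 with no filter, and 22 to 96 when 1 library was left out. Of the 7 genes, 1 was called, isg15, in 6 of 13 alternatives, and 0 with limma-voom. Leaving out any library gave 0 (range 0 to 0), with the isg15 log2 fold change between -3.03 and -2.59. Pathway genes called numbered 0, against 2 with library size scaling (b2m and mhc1zba), 9 with DESeq2, 1 with limma-voom (mhc1zba), 8 with no filter and 0 to 1 when 1 library was left out (xaf1, without Geminin-positive replicate 2). Precision is limited by 3 libraries a group with a biological coefficient of variation of 1.12, and for rsad2 and mxa by libraries with 0 counts.

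The labels do not say whether libraries with the same replicate number are paired, and the main fit treated them as unpaired. Same-numbered libraries correlated at 0.206, 0.0804 and 0.0593 in their deviations from the group means. Each correlated best with its own number, a hint of pairing from the data. With the replicate block, 134 genes were called over all genes, 1 of the 7 and 1 pathway gene (mhc1zba).

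Of 402 alternative values of 31 log2 fold changes, 388 kept their direction and 14 reversed, all for genes not called. Library size scaling turned irf1b to -0.15, crfb1 to -0.42, irf2b to -0.22 and ptpn2b to -0.32, after moving the median of all genes to -0.47. DESeq2 turned crfb1 to -0.0017, limma-voom turned crfb1 to -0.0122 and irf2b to -0.0115, and the replicate block turned irf2b to -0.0880. When 1 library was left out, crfb1 ranged from -0.32 to 0.20, irf2b from -0.79 to 0.52 and ptpn2b from -0.22 to 0.47, and the cause was not tested. The mean CPM of irf1b by total counts was 91.6 in Geminin-positive and 101 in Geminin-negative libraries, and that of irf7 in Geminin-positive libraries was 16.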
